A study of Mus musculus with 2 samples.

Results

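Solo CpGs are CG pairs with no other CpG within 300 bp on either side. They were chosen by position and depth alone: a solo CpG lay on an autosome, no other CpG with a call in either library lay within 300 bp, and each library held at least 8 calls on it, with both strands summed. Of 9472164 autosomal CpGs with that depth, 343225 (3.62%) were solo, 1958961 had 1 or 2 neighbours within 300 bp, and 7169978 had 3 or more. At any depth there were 443556 solo CpGs, of which 77.4% had 8 calls in both libraries. This share was 71.2% for CpGs with 1 or 2 neighbours and 43.5% for those with 3 or more. The last class thus stands for the better covered part of denser CpGs only. The 2 other classes are the comparison for every result, and the choice used no methylation level.

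Whole genome bisulfite sequencing (WGBS) was performed on primary osteoblasts that were taken from calvarial bone of C57BL/6 mice aged 3 days and kept in culture for 3 days. The WT group was 1 library of wild-type cells. The TCKO group was 1 library of cells in which Prx1-Cre had deleted the floxed copies (fl/fl) of Tet1, Tet2 and Tet3, all 3 genes of the family. Prx1-Cre acts in early limb and skull mesenchyme, so cells of other lineages in the culture keep their Tet genes. There are no replicates: each interval is a 95% interval for counting error, and each test compares these 2 libraries and not the genotypes. The level of a set is the share of methylated calls among all calls of its CpGs, and "gain" is used here for the TCKO level minus the WT level, in percentage points.

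DNA methyltransferases put a methyl group on the cytosine of both strands of a CpG, and maintenance after replication copies the mark from the old strand to the new one. TET enzymes oxidise the methyl group (5mC) to 5hmC and further forms, which opens the way back to an unmodified cytosine. Most mouse CpGs outside CpG islands are methylated, and isolated CpGs in A and T rich DNA are known as sites where methylation is kept less fully through cell division. Bisulfite reads 5mC and 5hmC alike, so a level is the sum of both.

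The library labelled TCKO had a stretch with few calls in each Tet gene. The 2 kb stretch of the gene with the fewest TCKO calls for its WT calls, among stretches with at least 50 WT calls, held 461 calls in WT and 39 in TCKO in Tet1, 122 and 13 in Tet2, and 164 and 39 in Tet3. These stretches held 0 solo CpGs. Each was picked for its low TCKO count and no other genes are set beside them, so they do not check the label on their own. Expression is not in these files, so osteoblast identity was looked at through promoter methylation in the 1 kb before the start site. The promoters of 26 osteoblast genes stood at 23.6% in WT and 31.2% in TCKO, and those of 12 blood cell genes at 55.5% and 66.5%. The WT library had 261127589 CG calls and the TCKO library 223645082. The median solo CpG had 23 WT calls and 20 TCKO calls, against 17 and 14 for CpGs with 3 or more neighbours, so single solo CpGs were measured slightly more closely.

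The following solo CpGs carry the 2 opposite patterns described below, and each is printed as 30 bases of the GRCm38 plus strand with the CpG in capitals. The first 4 were methylated in TCKO and hardly or only partly in WT, and lie in introns of Lrp6, Runx2, Col11a1 and Tet2. They were picked after their values were seen, to show the pattern in genes of bone, cartilage and the TET family. The next pair had among the smallest p-values of all solo CpGs higher in TCKO, and the last pair the smallest of those lower in TCKO.
Lrp6 intron, chr6:134543041-134543070: taaatgtaatgaacCGtttatacatgaaaa
Runx2 intron, chr17:44730051-44730080: aaaaagaacaaccaCGaaagaaaggaagga
Col11a1 intron, chr3:114195020-114195049: ctaatgatacagctCGtcattttctcagtg
Tet2 intron, chr3:133542670-133542699: gaatcccaacttccCGtacatgtaatctta
outside genes, chr6:43926448-43926477: aacctattgtattgCGaatgtcaggtgaag
Mroh9 intron, chr1:163081998-163082027: aactcttaacagaaCGccatcactgtattt
outside genes, chr11:8201090-8201119: tatattttggcttcCGtgtgtgtgtgttta
Vopp1 intron, chr6:57816653-57816682: cacaaccaaagaggCGatggcattgaacaa
The sequence around each CpG held no second CG, as the choice of members requires.

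To see how isolation goes with methylation in cells with and without TET enzymes, the 3 classes were first compared as wholes. Solo CpGs stood at 66.06% in WT (66.03 to 66.09) and 70.04% in TCKO (70.01 to 70.07), a gain of 3.98 points (3.93 to 4.03). CpGs with 1 or 2 neighbours stood at 69.33% and 74.14%, a gain of 4.80 points. CpGs with 3 or more neighbours stood at 72.51% and 79.09%, a gain of 6.57 points. Solo CpGs were thus the least methylated class in both libraries and the class with the smallest gain. The level of solo CpGs minus that of CpGs with 3 or more neighbours was -6.45 points in WT (-6.49 to -6.42) and -9.05 points in TCKO (-9.08 to -9.01), so the classes stood further apart without TET enzymes. The solo gain minus that of CpGs with 3 or more neighbours was -2.59 points (-2.64 to -2.55), and minus that of CpGs with 1 or 2 it was -0.82 (-0.87 to -0.77). Averaged over 22056 windows of 100 kb, each with at least 20 calls of both classes per library, solo CpGs and those with 3 or more neighbours were closer, with differences of -3.17 points in WT, -4.55 in TCKO and -1.38 in gain.

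The order did not depend on counting in points. The odds of a methylated call were 1.20 times higher in TCKO for solo CpGs, 1.27 times for CpGs with 1 or 2 neighbours and 1.43 times for those with 3 or more. Unmethylated calls in TCKO were 0.883 of their WT share at solo CpGs and 0.761 at CpGs with 3 or more neighbours. On each of the 19 autosomes solo CpGs lay below CpGs with 3 or more neighbours in WT, in TCKO and in gain. The solo gain ran from 1.08 points on chromosome 7 to 5.13 on chromosome 18, with a median of 4.19, and chromosomes 17 (2.22) and 19 (2.98) were the next lowest. Plus-strand calls gave a solo gain of 3.99 points and minus-strand calls 3.97.

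Solo CpGs were one end of a curve. With exactly 1 neighbour the gain was 4.52 points, with 3 it was 5.53, with 5 it was 6.56, and with 10 it was 7.93. At 12 it was 7.67 and at 15 it was 6.48, and CpGs with 20 or more neighbours gained 1.77 points. The WT level followed a similar course, from 66.1% at 0 neighbours to 73.8% at 8 and 61.1% at 20 or more. Within the solo class the same direction held for distance to the nearest CpG. Solo CpGs whose nearest CpG was up to 400 bp away stood at 67.4% in WT and gained 4.27 points, those with over 400 and up to 600 bp stood at 64.9% and gained 3.84, and those with over 600 and up to 1000 bp stood at 63.0% and gained 3.11. The 2601 solo CpGs with no CpG within 1000 bp stood at 61.8% in WT and 64.1% in TCKO, a gain of 2.24 points (1.71 to 2.76).

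**Figure D1:**
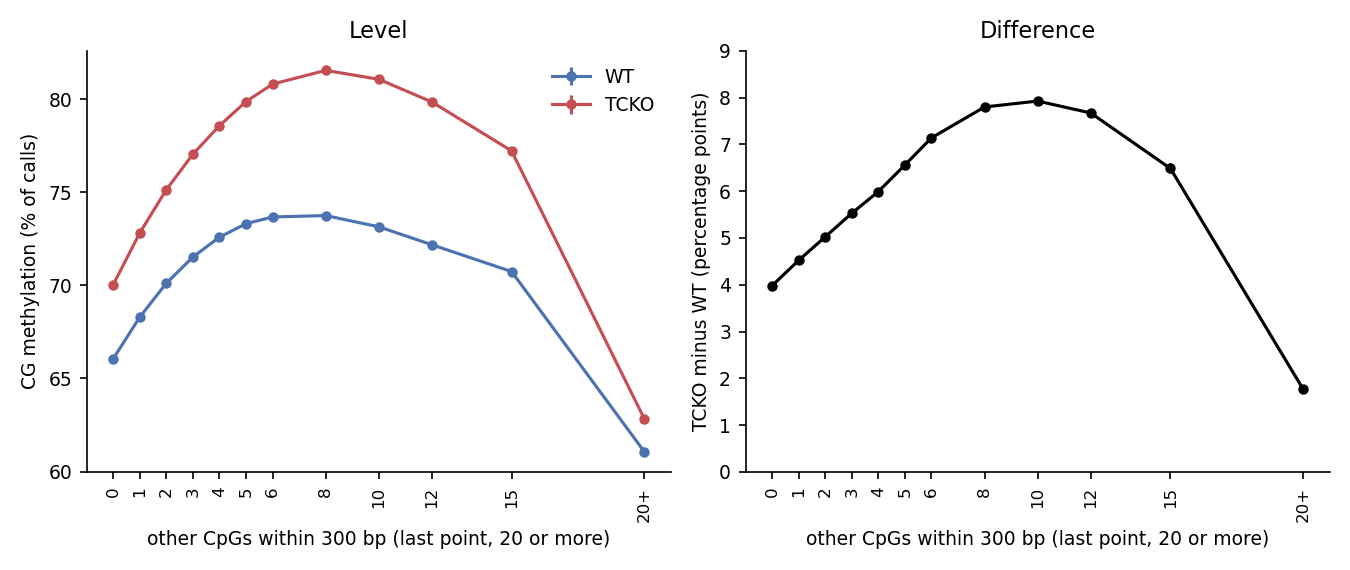
CG methylation (left, % of calls in WT and TCKO, on an axis that starts at 60%) and TCKO minus WT (right, percentage points) by the number of other CpGs within 300 bp, with 95% counting intervals that are mostly smaller than the points. Solo CpGs, at 0, gained 3.98 points, the gain was highest, among the counts plotted, with 10 neighbours (7.93), and CpGs with 20 or more gained 1.77.

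CpGs next to the limits of the definition had values like those of the members beside them. CpGs whose nearest neighbour lay in the last 20 bp within the 300 bp gained 4.69 points, and those whose nearest lay in the first 20 bp beyond gained 4.52. Solo CpGs with 7 calls in the shallower library gained 4.58 points and those with 8 calls gained 4.67. The 92886 solo CpGs with calls in both libraries but under 8 in at least 1 stood at 65.7% in WT and gained 4.08 points.

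Single solo CpGs were seldom near 0 or 100%. In WT 64.9% of solo CpGs had a level above 20% and below 80%, against 45.4% of CpGs with 3 or more neighbours. The latter had fewer calls and so more scatter, which can itself move single levels across these limits. The part of depth in these shares was not tested. Solo CpGs at 80% or more made up 31.2% in WT and 41.2% in TCKO, and for CpGs with 3 or more neighbours these shares were 49.1% and 62.9%. The median difference of a solo CpG was 3.33 points. Of all solo CpGs 58.5% were higher in TCKO, 38.9% were lower and 2.61% were equal. The share at 20% or less was 3.845% in WT and 3.01% in TCKO.

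**Figure D2:**
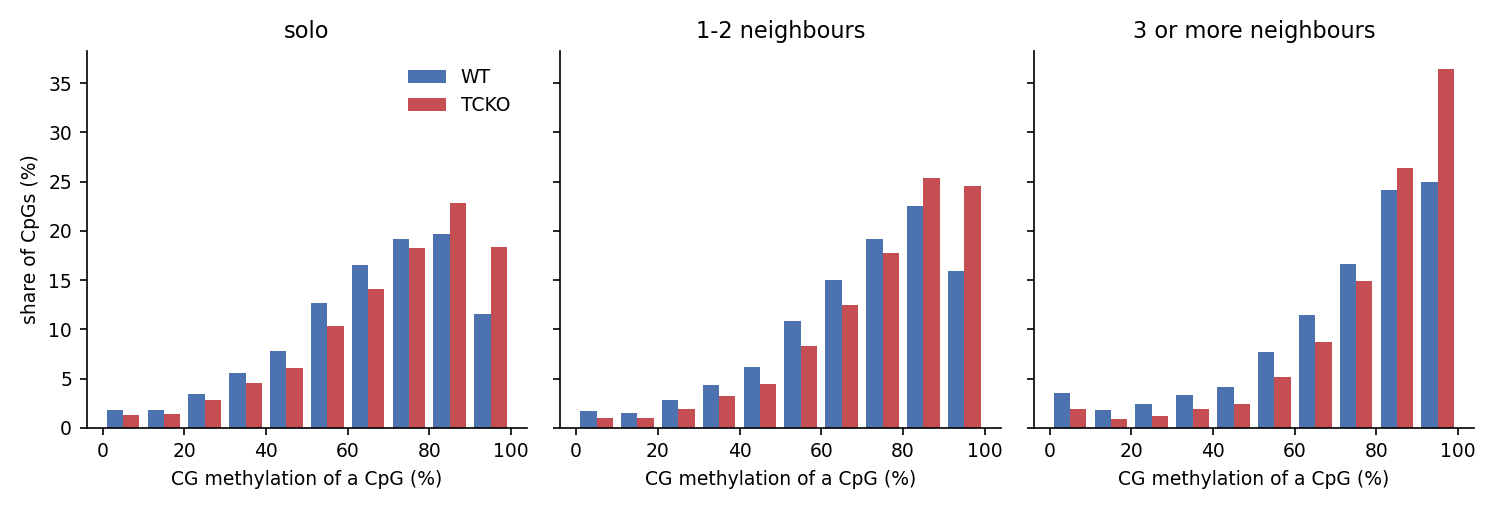
Share of CpGs (%) in each 10-point bin of methylation level, in WT and TCKO, for solo CpGs, CpGs with 1 or 2 neighbours and CpGs with 3 or more. In the top bin, 90% to 100%, solo CpGs went from 11.6% of sites in WT to 18.4% in TCKO, and CpGs with 3 or more neighbours from 24.9% to 36.5%.

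The bases next to the CG went with large differences in the level of solo CpGs. Solo CpGs with A or T on both sides (ACGA, for example) stood at 59.8% in WT, and those with G or C on both sides (GCGG, for example) at 76.9%, the former minus the latter being -17.1 points (-17.2 to -17.0). For CpGs with 3 or more neighbours it was -11.3 points. The solo class also held more A or T flanks (42.8% against 32.8%) and lay in DNA of lower GC content (a median of 36.8% against 42.4% in the sequence around the CpG). The neighbour classes also differed within flanks: within each of the 10 kinds of CpG with its 2 flanking bases, solo CpGs were below CpGs with 3 or more neighbours in WT, in TCKO and in gain. Likewise, where the GC content was above 40.4%, as for the most GC-rich solo CpGs, solo CpGs stood at 65.8% in WT and gained 4.88 points, while CpGs with 3 or more neighbours stood at 72.2% and gained 6.95.

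The gain differed little between A or T flanks (3.85 points) and G or C flanks (3.56), with a difference of 0.29 (0.15 to 0.43) that was 0.54 with a 150 bp window for neighbours and had an interval across 0 with a 500 bp window. On the scale of unmethylated calls the order turned, since TCKO kept 0.904 of the WT share at A or T flanks and 0.846 at G or C flanks. Single pairs of flanking bases differed more than these groups of flanks. At ACGT, solo CpGs stood at 59.2% in WT and gained 5.77 points. At TCGA, they stood at 59.4% in WT and gained 2.13 points. The WT level at ACGT minus that at TCGA was -0.16 points (-0.30 to -0.03), while the gains differed by 3.64 points (3.44 to 3.83), a pair picked after the values were seen. ACGG with its reverse complement CCGT gained the most (5.96 points) and CCGG gained 5.36. GCGC gained 1.94 points from the highest WT level of the 10, 81.1%, and GCGA with TCGC gained 2.24. For CpGs with 3 or more neighbours ACGT gained 9.09 points and TCGA 5.05, a similar step (4.03 points).

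Solo CpGs inside GENCODE M21 genes numbered 125631 and went from 68.98% to 73.76%, a gain of 4.79 points. The 217594 outside genes went from 64.44% to 68.00%, a gain of 3.56 points, and the gains differed by 1.23 points (1.13 to 1.32). Introns held nearly all of the former and gained 4.87 points, while the 8313 solo CpGs in exons gained 3.58. Inside genes and outside them, the solo gain was below that of CpGs with 3 or more neighbours, with differences of -2.31 and -2.46 points. Solo CpGs in repeat-masked sequence gained 1.84 points and the others 4.76, although their WT levels stood only a little apart (a difference of -1.09 points).

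Of the 5 distances to a start site, the closest had the smallest solo gain. The 1990 solo CpGs within 1 kb of the start of a protein-coding gene stood at 57.2% in WT and 57.9% in TCKO, a gain of 0.65 points (0.02 to 1.29). CpGs with 3 or more neighbours at that distance stood lower, at 41.4%, and gained 6.20 points. The solo gain was 2.61 points at 1 to 5 kb, 3.16 at 5 to 25 kb, 4.02 at 25 to 100 kb and 4.26 beyond 100 kb, where 59.8% of solo CpGs lay. CpGs with 3 or more neighbours gained at least 6.05 points at each of the 5 distances.

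**Figure D3:**
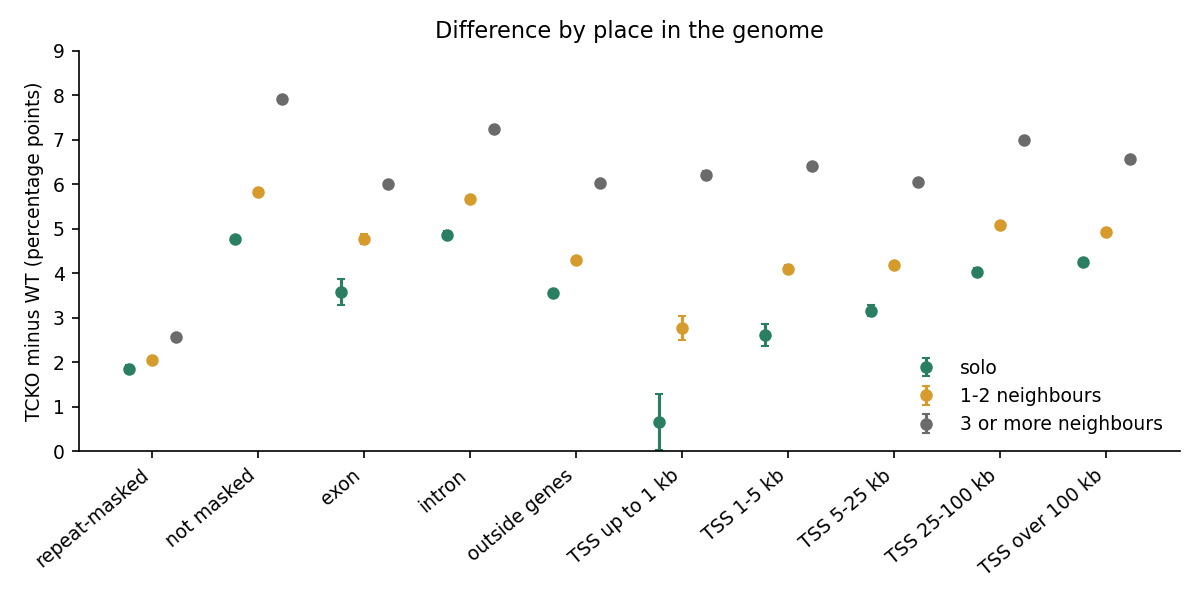
TCKO minus WT (percentage points, with 95% counting intervals) by repeat masking, place in genes and distance to the nearest protein-coding transcription start site (TSS), for solo CpGs and CpGs with 1 or 2 or with 3 or more neighbours. Solo CpGs were lowest in every place, from 0.65 points within 1 kb of a TSS to 4.87 in introns.

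The methylation of the surrounding region went with the solo gain. Regions were 100 kb windows, classed by the WT level of their CpGs with 3 or more neighbours, which share no calls with the solo CpGs on them. In windows under 60%, solo CpGs stood at 53.5% in WT and gained 0.53 points (0.19 to 0.87). They gained 2.49 points in windows of 60 to 70%, 4.96 in windows of 70 to 80%, and 5.43 (5.25 to 5.61) in windows of 80% or more, where they stood at 78.4%. The CpGs with 3 or more neighbours in those 4 classes gained 4.49, 6.21, 6.95 and 5.17 points, but their own WT calls had set the class. In the most methylated windows the solo gain was thus no longer the smaller one in points (a difference of 0.26, 0.08 to 0.45), while in unmethylated calls it was still weaker, with 0.748 of the WT share kept against 0.712. Over 17000 windows with at least 100 calls of both classes in each library, the solo level in WT and that of CpGs with 3 or more neighbours had a Pearson's r of 0.58 (Spearman's rho 0.58), and the gains 0.48 (0.46), as a description of windows that share libraries and depth.

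Short strings that resemble binding sites of transcription factor families were searched on both strands within 50 bp of each CpG on either side. TGACTCA or TGAGTCA, the core bound by bZIP factors of the AP-1 kind, lay beside 4851 solo CpGs (1.41%). These went from 62.5% in WT to 71.4% in TCKO, a gain of 8.95 points (8.55 to 9.35), against 3.91 for the other solo CpGs. AACCACA, the core bound by Runt factors such as RUNX2, the master regulator of osteoblasts, lay beside 7230 (2.11%) with a gain of 7.57 points (7.24 to 7.89). CAGCTG, an E-box read by bHLH factors, had a gain of 6.41 points (7805 solo CpGs, 2.27%), TTGGCA, a half-site of CTF/NFI factors, 6.47 (15503, 4.52%), and CATTCCA, a TEAD core, 6.25 (5529, 1.61%). Solo CpGs beside AGGGGGC, a part of the CTCF site, gained 4.12 points (1515, 0.441%), which differed from the rest by 0.14 with an interval from -0.58 to 0.86. A match is only a run of letters and does not show that a factor is bound.

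Around CpGs with 3 or more neighbours, the bZIP string lay beside 1.44% and the Runt string beside 2.52%, with gains of 13.7 and 9.74 points. The CTCF string lay beside 0.744% of them, and those gained 6.42 points against 6.57 for the rest. Thus a solo CpG beside a bZIP string gained more than the average CpG with 3 or more neighbours (6.57 points). Solo CpGs with and without a bZIP string stood further apart in WT, at 62.5% and 66.1%, than in TCKO, at 71.4% and 70.02%.

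**Figure D4:**
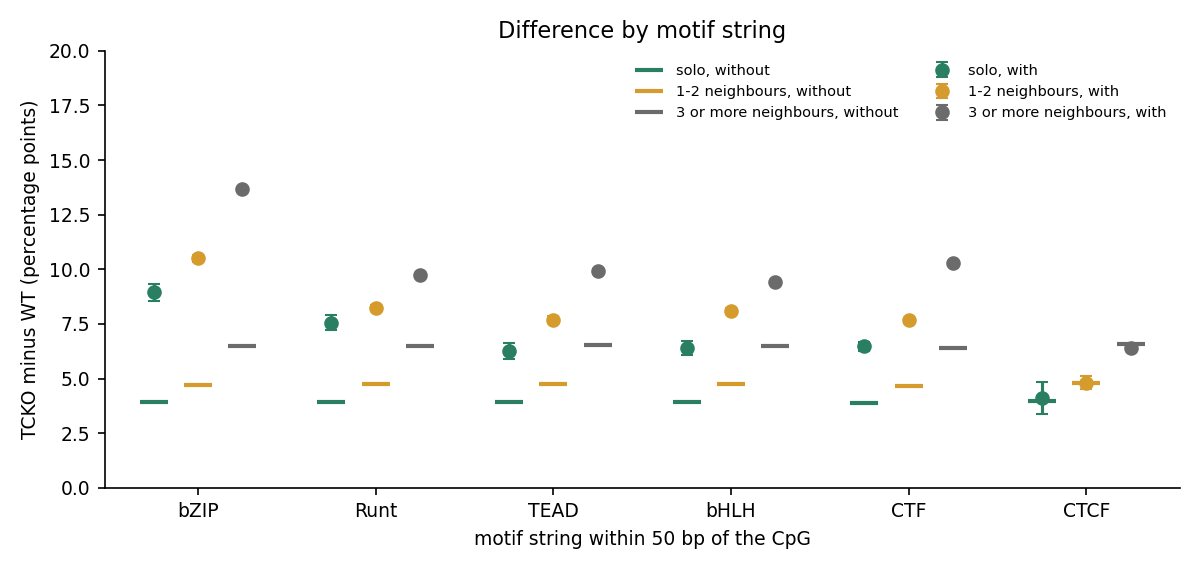
TCKO minus WT (percentage points) of CpGs with (points, 95% counting intervals) and without (bars) each motif string within 50 bp of the CpG, by neighbour class. Solo CpGs gained 8.95 points with the bZIP string and 7.57 with the Runt string, against 3.91 for the solo CpGs without the string in each case, and 4.12 with the CTCF string.

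Solo CpGs low in WT were then chosen on 1 strand and read on the other, so that the choice did not use the calls it is judged by. Of 84101 solo CpGs with at least 6 calls on each strand in each library, 3649 (4.34%) were at 20% or less on the plus strand in WT. On the minus strand they stood at 24.4% in WT and 35.3% in TCKO, a gain of 10.9 points (10.4 to 11.5). CpGs with 3 or more neighbours chosen the same way went from 19.6% to 41.5%, a gain of 21.96 points. Solo CpGs at 80% or more on the plus strand gained 2.70 points on the minus strand, close to the 3.02 points of CpGs with 3 or more neighbours. For sites between these limits on the plus strand the gains were 3.92 and 7.76 points. The shortfall of solo CpGs in gain was thus wide at sites chosen as low and narrow at those chosen as high. However, the low sets were not alike. On the WT minus strand 49.8% of the low solo CpGs were at 20% or less, against 64.0% of those with 3 or more neighbours. Of the low solo CpGs 69.3% had A or T on both sides and 6.28% lay within 5 kb of a TSS, while for CpGs with 3 or more neighbours these shares were 50.1% and 19.7%.

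Each CpG was tested between the libraries with a 2-sided Fisher exact test, adjusted by Benjamini-Hochberg over all 9472164 CpGs. Of the solo CpGs 3388 (0.987%) were higher in TCKO at an adjusted p under 0.05, where 1.34% of all CpGs were. Among CpGs with 20 to 29 calls in the shallower library the share was 1.22% for solo CpGs and 2.34% with 3 or more neighbours. The median level of the solo CpGs called higher was 18.2% in the WT library and 81.25% in the TCKO library. A bZIP string lay beside 4.96% of them and a Runt string beside 5.19%, against 1.41% and 2.11% of all solo CpGs. Of the called ones 41.8% lay inside genes and 12.5% in repeat-masked sequence, against 36.6% and 26.4% of all solo CpGs.

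The solo CpG with the smallest p (adjusted p = 2.35e-16, Fisher exact test) lies at position 64941225 of chromosome 12 in a transcribed untranslated part of Klhl28, 583 bp from the next CpG. It had 0 methylated of 44 calls in WT and 48 of 53 in TCKO, on both strands alike. The CpG at position 43926462 of chromosome 6, outside genes and 260184 bp from the nearest TSS, had 0 of 51 calls in WT and 44 of 51 in TCKO. An intronic CpG of Ifit1bl1, a gene of the interferon-induced IFIT group, at position 34598396 of chromosome 19 had 2 of 64 and 37 of 44. The Mroh9 CpG printed above had 0 of 38 and 46 of 54, with all WT calls on the minus strand, and a CpG outside genes at position 85491990 of chromosome 14 had 1 of 48 and 44 of 54. Each of the 5 was near 0 in WT and above 80% in TCKO, within a stretch of at least 338 bp free of other CpGs on both sides. The Klhl28 CpG and the one on chromosome 14 lie in repeat-masked sequence, and the others do not.

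A smaller set went the other way. Of the solo CpGs 353 (0.103%) were lower in TCKO, where 0.0549% of all CpGs were, and the share was above that of CpGs with 3 or more neighbours (0.0445%) in each of 4 depth classes. The median level of these CpGs fell from 68.8% to 0%, and 238 of the 353 had no methylated call at all in TCKO. They were crowded: 177 of them (50.1%) lay in 8 of 502 windows of 5 Mb, on chromosome 4 between 65 and 80 Mb and between 90 and 95 Mb, chromosome 6 between 55 and 60 Mb, chromosome 8 between 30 and 35 Mb, and chromosome 11 between 5 and 15 Mb. The 3388 called higher were spread over 468 windows and those called lower over 93. Of the 177 lower in these 8 windows all but 3 had 0 methylated calls in TCKO. A change of a C in the DNA of the TCKO library would read in the same way as a loss of methylation. In the WT library it would read as a gain, also at the CpGs called higher that had 0 methylated calls in WT. The part of such changes in the values of either direction was not tested. The TCKO calls came from 1 strand only at 61 of the 353.

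The CpG with the smallest p among those lower, at position 8201104 of chromosome 11 and printed above, had 47 of 48 calls methylated in WT and 0 of 32 in TCKO, on 15 plus-strand and 17 minus-strand calls. The Vopp1 CpG had 35 of 37 and 0 of 43. At position 26848617 of chromosome 11 a CpG outside genes had 35 of 45 in WT and 0 of 46 in TCKO, all 46 on the minus strand. This CpG, the Vopp1 CpG and the one at position 8201104 all lie in repeat-masked sequence. So did 24.1% of the solo CpGs called lower, beside 26.4% of all solo CpGs. Among the 107164 solo CpGs at 80% or more in WT, 39 were at 0 in TCKO, and 30 of these lay in 5 windows of 5 Mb. At 13 of the 39 (33.3%) the TCKO calls came from 1 strand only, against 6.22% of all 107164. Without those 5 windows the solo gain was 3.99 points. They held 72 of the 353 solo CpGs called lower, and the crowded windows of chromosome 4 were not among them.

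Solo CpGs were then pooled over genes, and 2187 protein-coding genes with at least 10 of them were tested with the 2-sided Fisher exact test. Of these 1013 (46.3%) were higher in TCKO at an adjusted p under 0.05 and 17 (0.777%) were lower. With at least 16 calls per CpG, which leaves fewer CpGs per gene, these counts were 638 and 7. The 5 genes with the most solo CpGs were as follows. Cntnap2, a neurexin-like cell adhesion protein, held 685 and went from 65.5% to 72.3%, a gain of 6.79 points (5.79 to 7.79). Lrp1b, a large receptor of the LDL receptor family, held 620 and gained 4.29 points, Lsamp (an IgLON adhesion protein) held 511 and gained 5.69, and Dlg2 (a synaptic scaffold) held 491 and gained 2.77. Ptprd, a receptor tyrosine phosphatase, held 447 and differed by -0.72 points (-2.02 to 0.59). It lies on chromosome 4 between 75 and 80 Mb, in a window that was among those crowded with solo CpGs called lower. Of the solo CpGs of Ptprd 4 were called higher and 19 lower, where 0.987% and 0.103% of all solo CpGs were. All 19 had 0 methylated calls in TCKO and stood between 29.8% and 73.7% in WT. Without those 19, left out because of their values, Ptprd went from 68.6% to 70.3%, a gain of 1.76 points (0.44 to 3.07).

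Among the 657 genes with at least 30 solo CpGs, 599 had a higher level in TCKO, and the median difference was 5.72 points. Angpt1, which encodes the vessel growth factor angiopoietin-1, differed most, from 61.5% to 77.7%, a gain of 16.2 points (12.6 to 19.8) over 54 solo CpGs (adjusted p = 2.53e-16, Fisher exact test). It was followed by Col28a1 and Col5a2, which encode collagen chains and gained 15.7 and 15.6 points, by Syndig1, which encodes a synapse protein and gained 15.6, and by Cenpp, a centromere protein gene with 15.5. The body of Cenpp overlaps the genes of the extracellular matrix proteins Aspn, Ecm2, Ogn and Omd, so its 35 solo CpGs are shared with them in part. At the other end stood Sult2a4 (a sulfotransferase, 46.2% to 38.9%, a difference of -7.29 points), Slc22a30 (an organic ion transporter, -6.93), Gm5592 (-5.41), Slco6d1 (an organic anion transporter, -5.37) and Lipo3 (a lipase, -5.02). Sult2a4, Slc22a30, Slco6d1 and Lipo3 belong to families with near copies, and how the reads of copies were split is uncertain. Their WT levels, 45.6% to 63.0%, were below the median of 69.6% over the 657 genes.

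Of 27 genes of the osteoblast list, 14 held a solo CpG and 10 held the 10 needed for the test. Of these, 7 were higher in TCKO and 0 were lower, where 46.3% of all 2187 tested genes were higher and 0.777% lower. The median difference of the 10 was 12.4 points, against 5.43 over all tested genes. The list was chosen with earlier results of these data known, so these values describe the listed genes and do not test osteoblast genes as a class. Cdh11, the osteoblast cadherin, went from 67.8% (402 of 593 calls) to 89.3% (486 of 544), a gain of 21.5 points (16.9 to 26.1, adjusted p = 4.33e-17, Fisher exact test). Lrp6, a Wnt co-receptor needed for bone formation, gained 18.2 points, from 68.6% to 86.8%. Runx2 went from 60.1% to 78.3%, a gain of 18.2 points (11.99 to 24.1), and Col12a1, a fibril-associated collagen, from 69.0% to 87.0%. Bmpr1b, a BMP receptor, gained 9.25 points. Fgfr2 gained 6.57 points, but its annotated body spans 2961 kb with 30 other genes in it. Mef2c, Tnc and Gli3 differed by 1.64, 5.10 and 1.37 points and did not pass the test. The body of Runx2 overlaps Supt3.

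Single solo CpGs of these genes were called as well. Of 384 in the osteoblast genes 12 (3.125%) were called higher and 0 lower, where 0.987% of all solo CpGs and 1.34% of all CpGs were called higher. A share above these was not particular to bone genes, since in the blood cell genes 2 of 83 solo CpGs (2.41%) were called higher. The Lrp6 CpG printed above, at position 134543055 of chromosome 6, had 1 of 38 calls methylated in WT and 26 of 32 in TCKO (adjusted p = 1.87e-08, Fisher exact test). Runx2 had 3 such CpGs, all in introns, and the one printed above had 6 of 31 and 23 of 30. Spp1, which encodes the bone matrix protein osteopontin, has 1 solo CpG in its body, in an exon at position 104435751 of chromosome 5, with 3 of 32 calls in WT and 12 of 18 in TCKO. Col5a2 had 2 called higher, and Cdh11, Col12a1 and Gli3 had 1 each. Fgfr2 also had 2, and its long annotated body, which holds other genes, supplied 162 of the 384 solo CpGs. The 12 ranged in WT from 2.63% to 62.5% and in TCKO from 66.7% to 96.2%.

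Of the cartilage list 4 genes were tested and 3 were higher, beside 46.3% of all tested genes: Col11a1 (a fibrillar collagen) by 10.5 points, and the chondrogenic factors Sox6 by 8.19 and Sox5 by 7.96. Hapln1 differed by 1.32 points and did not pass. Of 195 solo CpGs in the cartilage genes 4 (2.05%), in Sox6 and Col11a1, were called higher and 1 lower. Among all solo CpGs these shares were 0.987% and 0.103%, and among all CpGs 1.34% and 0.0549%. The Col11a1 CpG printed above had 2 of 19 calls methylated in WT and 17 of 18 in TCKO, while the one called lower, in an intron of Sox6 at position 115640397 of chromosome 7, had 37 of 40 and 13 of 32. Of the 20 neuronal genes 16 were higher, where 46.3% of all tested genes were, but these genes held 33 to 685 solo CpGs each and so had many more calls than most. They had a median difference of 6.05 points, from 10.5 in Ctnna2 down to -2.67 in Cdh13. Csmd1, Cntn4, Ptprd and Cdh13 did not pass. Of 6 tested blood cell genes only Itga4, an integrin chain, passed, with 13.8 points, beside the 46.3% of all tested genes, and the median of the 6 was 1.92 points. These list medians are descriptions of 4 to 20 genes each and were not tested against each other. Tet1 held 5 solo CpGs, which went from 71.1% to 86.2%, and Tet2 held 9, which went from 74.3% to 90.4%. The Tet2 CpG printed above had 3 of 26 calls methylated in WT and 24 of 27 in TCKO, and Tet3 held no solo CpG.

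**Figure D5:**
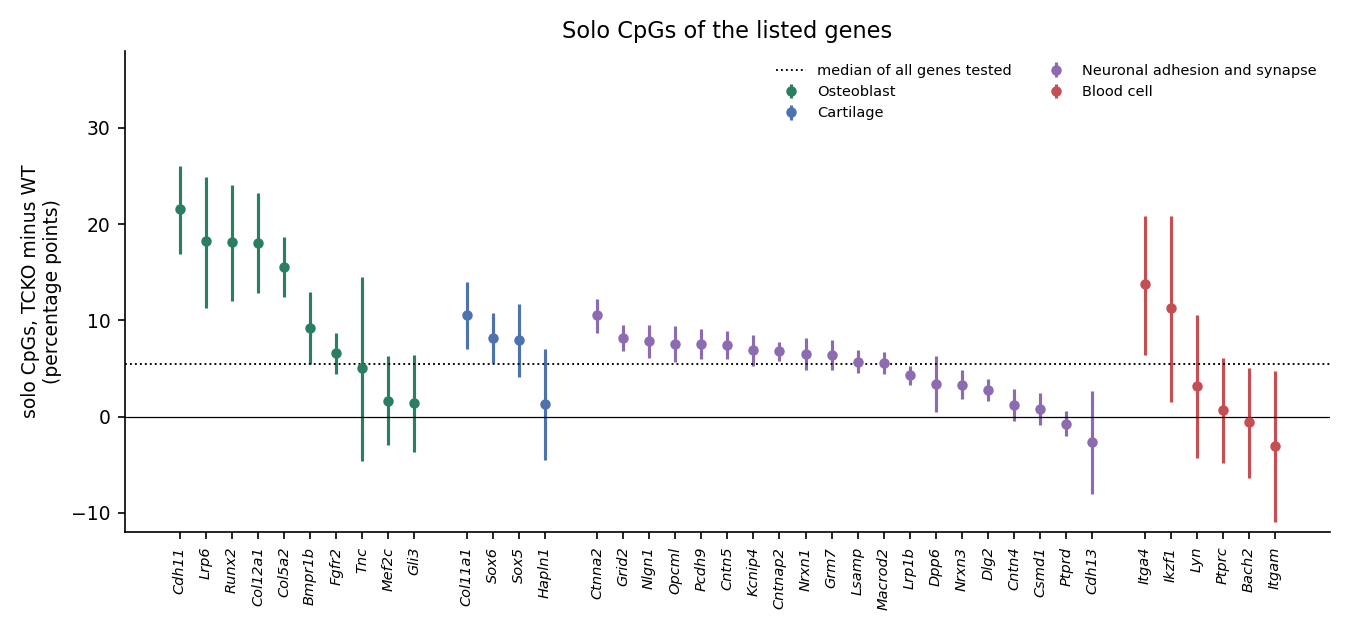
TCKO minus WT of the pooled solo CpGs (percentage points, with 95% counting intervals) for each tested gene of the 4 lists, with the median of all 2187 tested genes, 5.43 points, as a dotted line. Of the 10 osteoblast genes 7 lie above that line, with Cdh11 highest at 21.5 points, while 4 of the 6 blood cell genes lie below it. The lists were chosen with earlier results of these data known.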

How the data were processed

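WGBS was analysed for 1 WT and 1 TCKO library, assigned by the genotype in the labels. The authors aligned reads to GRCm38 with BSMAP 2.74 (at most 2 mismatches, unique hits) and deposited the counts of methylated calls and of all calls for the C of each CG on its strand, with no normalization. CASAVA is also named in the submitters' processing notes. Removal of duplicate reads is not given in the sources used here. Calls on 1 read are not independent, so the intervals and tests cover no more than counting error.

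Here both strands of a CpG were summed, and every CpG used matched a CG of the GRCm38 reference. Neighbours were counted from CpGs with a call in either library. Levels pooled calls over CpGs, with Wilson intervals for shares and Newcombe intervals for differences. Differences between 2 gains used the summed binomial variances. Fisher exact tests with Benjamini-Hochberg adjustment covered all CpGs with 8 calls, and all protein-coding GENCODE M21 genes with 10 solo CpGs. Genes with 30 solo CpGs were named for the most members (5), the largest (5) and the smallest (5) differences, and single CpGs for the smallest p (5 higher, 3 lower). Repeat-masked means lower case in the RefSeq FASTA. The code was tested on simulated data. Members and lists were chosen with earlier results of these data known. The osteoblast list leaves out 1 gene that is not reported here. No sequence of chromosome 18 was printed. Software was Python 3.11.15, numpy 2.4.6, pandas 2.3.3, scipy 1.17.1, numba 0.67.0 and matplotlib 3.10.9.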

Additional observations from a re-analysis of the deposited data

How the results depend on the processing

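The alternatives changed the averaging, the call minimum (4 or 16), the neighbour window (150 or 500 bp), the source of neighbours, the deepest CpGs, the strand and the chromosomes. In the 93 values recomputed for the 8 comparisons of levels and gains, none turned direction and 92 stayed on their side of the threshold. The exception was the gain at A or T flanks minus that at G or C flanks, 0.26 points (-0.05 to 0.57) with the 500 bp window, and the cause was not tested. The solo gain ran from 3.41 points (500 bp) to 4.77 (150 bp). Averaged over 100 kb windows, the distance of solo CpGs from those with 3 or more neighbours was smaller: -3.17 points in WT, -4.55 in TCKO and -1.38 in gain. Counts of calls moved more. Without adjustment 20806 solo CpGs were higher and 4733 lower, and 35 genes were lower. With at least 16 calls per CpG 638 genes were higher and 7 lower, from fewer CpGs per gene. No gene in either direction (0 and 0) differed by 40 points. Slc22a30 (-5.06 points with at least 16 calls) and Gm5592 (-4.81 without the deepest CpGs) no longer passed. No paired analysis was possible because each genotype had 1 library. About 20 calls leave the level of 1 CpG imprecise, and CpGs that were not called may still differ.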
